A study of Canis lupus familiaris with 15 samples.

Results

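Matrix metalloproteinases (MMPs) and their tissue inhibitors (TIMPs) were followed across 15 arrays of MDCK cells, an established canine kidney epithelial line whose cells polarise when grown on a porous membrane. The members were 6 genes, MMP13, TIMP1, TIMP2, TIMP3, MMP2 and MMP9, and every probe set whose platform annotation gave one of these symbols was taken. This found 14 of the 43035 probe sets on the array. The genes were proposed with earlier results of these arrays in view, so their differences between groups are given as descriptions, without p-values.

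All groups were MDCK cells held on Transwell filters for 7 days at the same culture conditions. The Control group received medium alone (n = 4), and the HGF group received 100 ng/ml of hepatocyte growth factor over 24 h (n = 4). The HGF + PD group (n = 4) received the same HGF with 50 uM of a compound spelled PD09859 in the labels, and the HGF + UO group (n = 3) received HGF with 10 uM of one spelled UO126. The series title calls these compounds MAPK inhibitors. Cells given a compound without HGF were not analysed here, the labels name no vehicle, and all arrays come from the 1 cell line. The doses differed, so values with PD and with UO are given side by side and were not compared with each other.

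MMPs are zinc-dependent proteases that cleave proteins of the extracellular matrix and are made as inactive proenzymes. TIMPs bind the active site of MMPs and block it. HGF binds the receptor tyrosine kinase MET and makes MDCK cells scatter and form tubules, processes in which matrix breakdown takes part. The MAPK cascade downstream of MET ends in ERK, which acts on AP-1 and ETS transcription factors, and AP-1 binding sites are a known feature of the MMP13, MMP1 and TIMP1 promoters.

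Values are log2 of the deposited intensity, and differences are given ± the standard error (SE) of a limma model over all 15 arrays. A probe set was kept for the model when 3 or more arrays read 4 or higher on the log2 scale. This kept 9 of the 14 probe sets and 5 of the 6 genes, and no probe set of MMP2 passed. Median intensity lay between 40.2 and 42.5 on all arrays. The log2 ratio of the 3′ to the 5′ actin control, a measure of RNA quality, was 2.24 ± 0.05 (SD, n = 4) in Control, 1.48 ± 0.08 (n = 4) in HGF, 2.13 ± 0.07 (n = 4) in HGF + PD and 2.15 ± 0.04 (n = 3) in HGF + UO. It therefore set the HGF group apart from the others, being lower where the members kept were higher. The part of this ratio in the differences of the genes below was not tested. Keratin and EPCAM probe sets of epithelium were bright on every array, with KRT8, KRT18 and EPCAM between 14.2 and 15.4 on the log2 scale.

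With HGF, all 5 members that passed the filter had higher means than Control and also fell past the threshold of 0.05 on the limma adjusted p, against 28.0% of the 10287 genes tested that were called higher and 27.7% called lower. Their differences ran from 0.78 for MMP9 to 7.58 for MMP13. In HGF + PD all 5 were called lower than HGF, where 25.8% of genes were called lower and 29.9% higher, and in HGF + UO again all 5, where 26.3% were called lower and 26.2% higher. These shares are printed as background only, because the members were chosen from the same contrasts and because all 3 comparisons use the same HGF arrays. In whole cultures, more RNA per cell and more cells of an expressing type cannot be told apart.

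MMP13, a collagenase that cleaves fibrillar collagens, was measured by 2 probe sets. On the brighter one the Control arrays gave 4.06, 4.33, 4.48 and 4.21. The HGF arrays gave 11.81, 11.17, 12.23 and 12.19. With PD the values were 4.11, 4.13, 4.12 and 4.00, and with UO they were 4.18, 4.77 and 4.08. All 4 HGF arrays stood far above the other 11, and both inhibitor groups overlapped with Control. The difference was 7.58 ± 0.20 for HGF minus Control, -7.76 ± 0.20 for HGF + PD minus HGF and -7.51 ± 0.22 for HGF + UO minus HGF. It ranked 1 of 10287 genes from the top for HGF minus Control. Against Control, the difference was -0.18 ± 0.20 with PD and 0.07 ± 0.22 with UO.

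On the dimmer MMP13 probe set the HGF arrays were again far above the other 11. It read between 2.14 and 2.18 on the Control arrays, 9.08, 8.20, 9.74 and 9.64 on the HGF arrays, between 2.10 and 2.12 with PD and between 2.11 and 2.19 with UO. The PD arrays all lay below the Control arrays, by a mean of 0.05 that was not called, and the UO arrays overlapped with Control. Its difference was 7.01 ± 0.24 for HGF minus Control, and it passed the filter only through the HGF arrays. Because the arrays without an HGF response lay near the filter level on one probe set and below it on the other, the size of the MMP13 difference depends on the background subtraction. After adding 16 to every intensity before taking log2, it was 6.71 on the brighter probe set. That is below the 7.17 of TIMP1 in the same setting, so MMP13 was not first there.

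TIMP1, a secreted inhibitor of many MMPs, was also far higher with HGF. Control arrays read 6.61, 6.57, 6.30 and 6.45, and HGF arrays read 13.82, 13.93, 13.80 and 14.03. With PD, TIMP1 read 5.74, 5.81, 5.94 and 5.99, and with UO it read 6.02, 5.79 and 5.71. The HGF arrays did not overlap with any other group, and every inhibitor array lay below every Control array. The difference was 7.41 ± 0.09 for HGF minus Control (rank 3 of 10287), -8.02 ± 0.09 for HGF + PD minus HGF and -8.05 ± 0.10 for HGF + UO minus HGF. Each of the last 2 was the lowest of all genes in its comparison. The annotation gave a single probe set for TIMP1, so no second one could be set beside it.

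**Figure D1:**
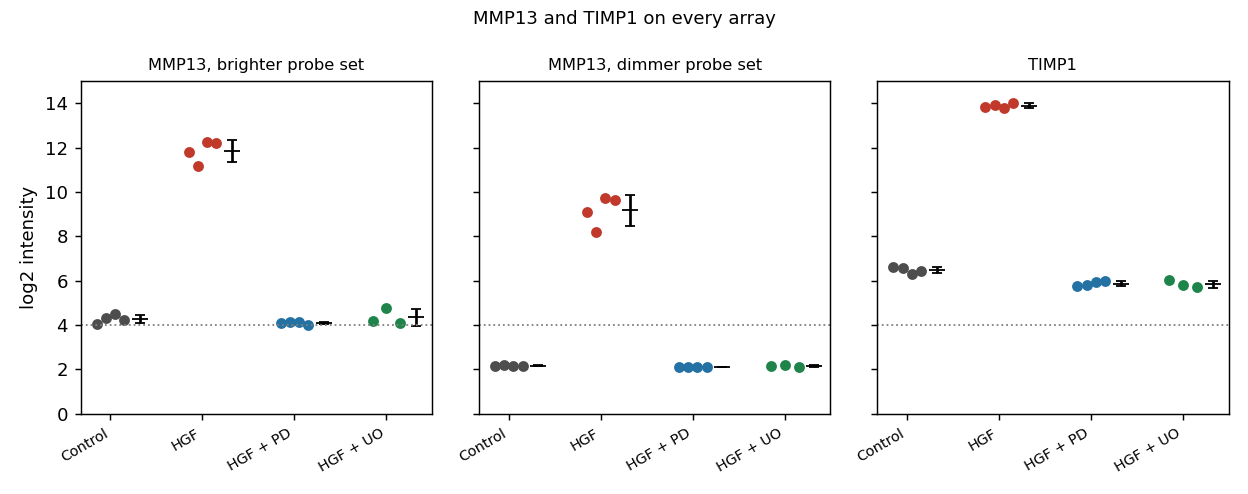
MMP13 (both probe sets) and TIMP1 on every array, as log2 intensity by group, with the mean and SD beside the points and the filter level of 4 as a dotted line. The 4 HGF arrays lie between 11.17 and 12.23 on the brighter MMP13 probe set and between 13.80 and 14.03 for TIMP1, above all other arrays.

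TIMP1 was the 1 member called lower than Control when HGF was given with a compound. The difference from Control was -0.61 ± 0.09 with PD, where 13.5% of genes were called lower and 21.8% higher, and -0.64 ± 0.10 with UO, where 10.3% were called lower and 13.8% higher. The other 4 members kept were not called against Control in either group. TIMP2 differed from Control by -0.23 ± 0.09 with UO without overlap between arrays, and by -0.03 ± 0.08 with PD, where the arrays overlapped.

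TIMP2 inhibits MMPs and, together with the membrane protease MMP14, also takes part in the activation of proMMP2. It read 8.21, 8.10, 8.08 and 8.20 in Control and 9.33, 9.14, 9.40 and 9.27 with HGF. HGF + PD gave 8.28, 8.01, 7.96 and 8.21, and HGF + UO gave 7.99, 7.80 and 7.96. The HGF arrays were above all others. The difference was 1.14 ± 0.08 for HGF minus Control, -1.17 ± 0.08 for HGF + PD minus HGF and -1.37 ± 0.09 for HGF + UO minus HGF. For HGF minus Control this was rank 640 of 10287.

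TIMP3 binds to the matrix and inhibits ADAM proteases as well as MMPs, and 4 probe sets measured it. The brightest read 9.72, 9.46, 9.69 and 9.38 in Control and 10.35, 10.58, 10.66 and 10.63 with HGF. On the same probe set HGF + PD gave 9.67, 9.78, 9.74 and 9.73, and HGF + UO gave 9.88, 9.81 and 9.49. HGF arrays were the highest on each of the 4 TIMP3 probe sets, and the remaining groups overlapped with one another. The size of the difference varied between probe sets, and it was larger on those with the lower Control level. HGF minus Control was 0.99 ± 0.10, 1.48 ± 0.17, 1.90 ± 0.17 and 3.18 ± 0.23, in order from the brightest to the dimmest.

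The dimmest TIMP3 probe set read 4.17, 4.49, 3.74 and 4.38 in Control and 7.31, 7.14, 7.28 and 7.77 with HGF. It thus lay near the filter level without HGF. HGF + PD minus HGF was between -2.86 and -0.82 over the 4 probe sets, and HGF + UO minus HGF was between -3.20 and -0.83. Against Control the differences ran from -0.03 to 0.32 with PD and from -0.02 to 0.17 with UO, and on each of the 4 probe sets the arrays overlapped. In the RefSeq gene order for the dog, TIMP3 lies inside the gene SYN3, which encodes a synapsin. The 4 SYN3 probe sets differed by -0.08 to 0.03 between HGF and Control.

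MMP9, a gelatinase that cleaves denatured collagen and basement membrane collagen, had 1 of 3 probe sets above the filter. That probe set read 4.71, 4.91, 5.40 and 5.15 in Control and 5.93, 5.47, 6.00 and 5.88 with HGF. HGF + PD arrays read between 5.18 and 5.19, and HGF + UO arrays between 4.69 and 4.76. The lowest HGF array was only just above the highest Control array. The difference was 0.78 ± 0.13 for HGF minus Control, -0.64 ± 0.13 for HGF + PD minus HGF and -1.10 ± 0.14 for HGF + UO minus HGF. Against Control it was 0.14 ± 0.13 with PD and -0.32 ± 0.14 with UO, and both groups overlapped with Control. The other 2 MMP9 probe sets read between 2.01 and 2.59 on all arrays, so the differences rest on 1 dim probe set.

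MMP2, the other gelatinase, had 3 probe sets that read between 2.67 and 4.32 on all arrays. Its brightest probe set read 3.75 to 3.77 in Control and 3.76 to 3.78 with HGF, and exceeded 4 on 2 arrays, HGF + PD replicate 1 (4.24) and HGF + UO replicate 2 (4.32). MMP2 was therefore not measured above the filter, which does not show that it was absent.

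**Figure D2:**
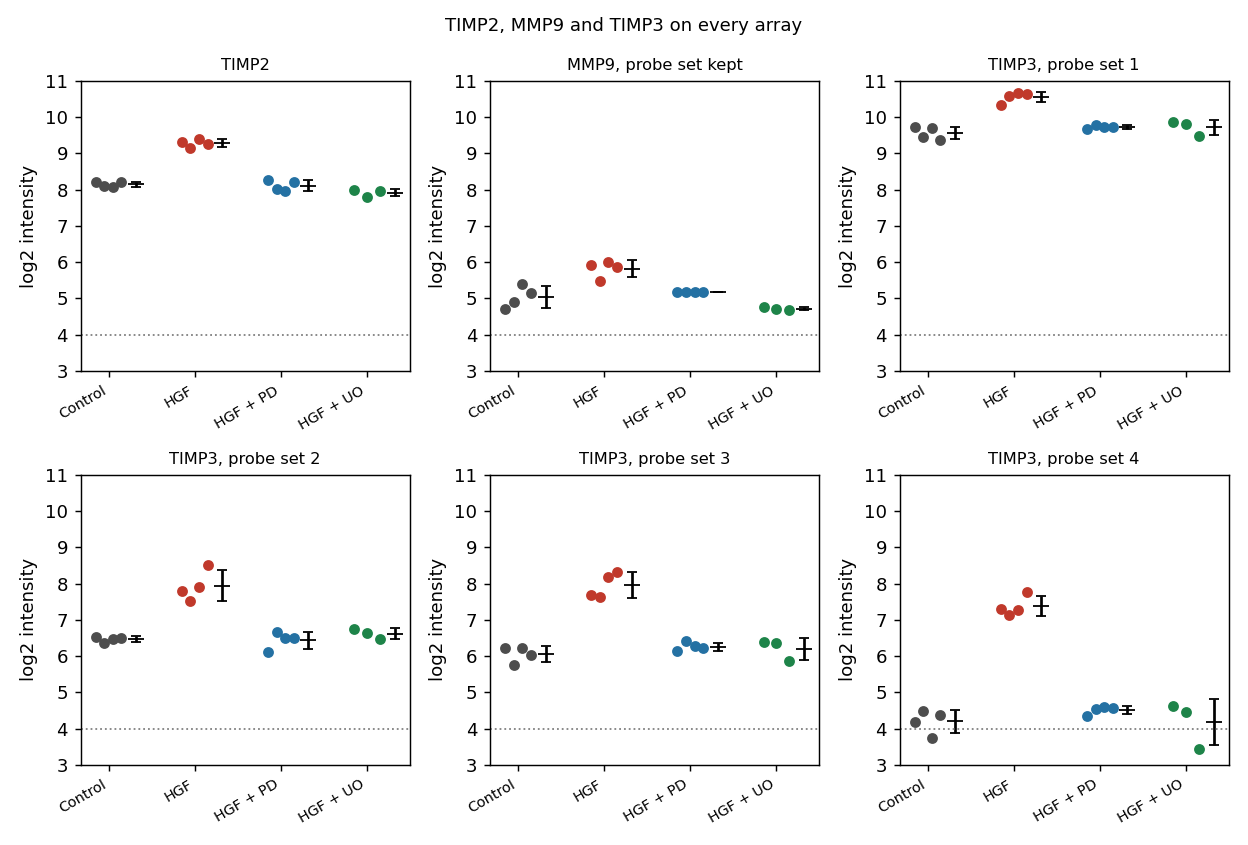
TIMP2, the MMP9 probe set kept and the 4 TIMP3 probe sets (1 brightest, 4 dimmest) on every array, as log2 intensity by group, with the mean and SD beside the points. The y axis starts at 3 and the dotted line is the filter level of 4. HGF arrays are the highest in each panel, from a rise of 0.78 for MMP9 to 3.18 for TIMP3 probe set 4.

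**Figure D3:**
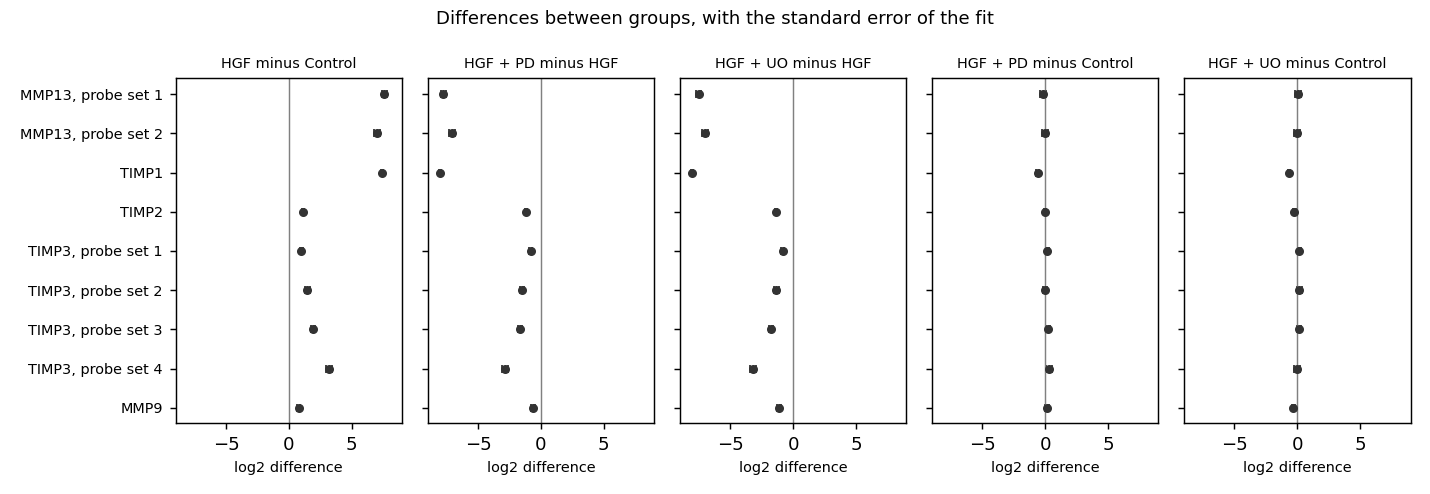
Log2 differences of the 9 probe sets kept in each of the 5 comparisons, with the SE of the fit (often smaller than the point). MMP13 and TIMP1 lie beyond 7 in size in the 3 comparisons with HGF arrays, and all probe sets lie within 0.65 of 0 in the 2 comparisons of an inhibitor group with Control.

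The members varied unequally among the 4 HGF arrays. The SD of MMP13 there was 0.489, larger than that of 98.5% of genes, while the SD of TIMP1 was 0.108, near the median of all genes (0.107). TIMP2 had an SD of 0.109 and MMP9 of 0.242. For TIMP3 the SD depended on the probe set, at 0.142 on the brightest and 0.424, 0.351 and 0.272 on the others. HGF replicate 2 was the lowest HGF array for both MMP13 probe sets, TIMP2, MMP9 and 3 of 4 TIMP3 probe sets, but not for TIMP1. Among the 750 genes raised by at least 1 with HGF, replicate 2 was the lowest array in 24.0% and replicate 1 in 40.5%. Without HGF replicate 2 the MMP13 difference was 7.81.

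The genes whose profile over the 15 arrays was most like MMP13 were DSG3, a desmosomal cadherin (root-mean-square difference 0.346 on the log2 scale after centring each gene), TFPI2 (0.364) and S100A2 (0.726). The same 3 genes came nearest to TIMP1, at 0.303, 0.460 and 0.802. DSG3 read 1.97 to 1.98 in Control, 9.43 to 9.80 with HGF, 1.93 to 1.97 with PD and 1.95 to 1.99 with UO, so it passed the filter only through the HGF arrays. S100A2, a calcium-binding protein, read 8.52 to 8.74 in Control and 14.88 to 15.02 with HGF. Those nearest to TIMP2 were CRBN (0.0880), KCMF1 (0.0972) and PARD3 (0.0979). SMAD2 (0.111), RAB9A (0.115) and ACTR3 (0.118) were nearest to TIMP3, and LOC475563 (0.167), MOB2 (0.172) and SNX16 (0.172) to MMP9.

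The rest of the MMP and TIMP family was mostly below the filter. Of 18 other annotated family genes, 14 had no probe set kept, and these read between 1.77 and 3.34 on every array. The 4 that passed were MMP1, MMP14, MMP17 and MMP28. MMP1 was called higher with HGF, and MMP14, MMP17 and MMP28 were not called. Of all genes, 28.0% were called higher and 27.7% lower.

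MMP1, a second collagenase, read 2.88, 2.83, 2.75 and 2.76 in Control and 4.64, 3.96, 5.34 and 6.69 with HGF. It read 2.66 to 2.71 with PD and 2.67 to 3.03 with UO. These values are of the probe set kept. On it every HGF array exceeded every other array, but the HGF arrays were widely spread and MMP1 passed the filter through them alone. The difference was 2.35 ± 0.39 for HGF minus Control (limma adjusted p = 0.000121), -2.47 ± 0.39 with PD (7.85e-05) and -2.35 ± 0.42 with UO (0.000272). Another MMP1 probe set, not kept, read 2.22 to 2.27 in Control and 2.25 to 2.71 with HGF, so its arrays overlapped. In the RefSeq order of dog chromosome 5, MMP13 and MMP1 lie in a run of 8 MMP genes. Of these, 7 had a probe set. MMP3, MMP8, MMP27, MMP20 and MMP7, which lie in the same run, had none kept.

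MMP14, the membrane protease that acts on proMMP2, read between 3.62 and 4.45 on all arrays, and its difference with HGF was -0.12 ± 0.11 (limma adjusted p = 0.379). MMP17, another membrane-bound MMP, had 1 of 3 probe sets kept, and values of the family reached down to 1.65 on the others. The kept one read 8.21 to 8.50 in Control and 8.22 to 8.43 with HGF. MMP28, a secreted MMP of epithelia, had a probe set not kept that read 1.85 to 2.15 on all arrays. On its kept probe set MMP28 differed by 0.06 ± 0.11 with HGF. It fell by 0.39 ± 0.11 in HGF + PD against HGF (limma adjusted p = 0.00637) and by 0.35 ± 0.12 in HGF + UO (0.021). The call with UO was lost, leaving MMP1 as the 1 family gene called, without any 1 of HGF replicates 3 and 4 or HGF + UO replicates 1 and 3. With all arrays, 26.2% of all genes were called higher and 26.3% lower than HGF with UO.

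**Figure D4:**
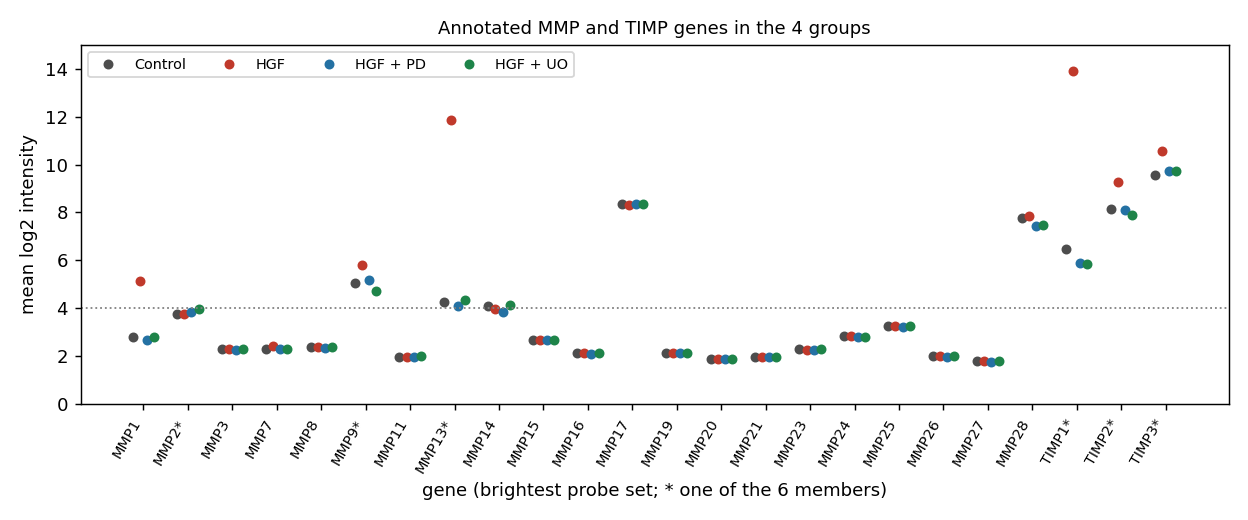
Mean log2 intensity in each group for the brightest probe set of the 24 annotated MMP and TIMP genes (asterisk, 1 of the 6 members), with the filter level of 4 as a dotted line. Heights of different genes are not comparable. The HGF mean stands apart for MMP13, TIMP1 and MMP1 and by about 1 for TIMP2 and TIMP3.

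The ADAM and ADAMTS proteases, relatives of the MMPs that shed surface proteins or cleave proteoglycans, were mostly not called with HGF. Of 13 measured, 10 were not called, 0 were called higher and 3 lower (ADAM28, ADAMTS9 and ADAM10). The shares of all genes were 28.0% called higher and 27.7% lower. The list median was -0.05, beside -0.01 over all genes. ADAM28 read 8.03, 8.14, 8.06 and 8.34 in Control and 6.89, 7.02, 6.95 and 7.34 with HGF, a fall of 1.09 ± 0.13 (limma adjusted p = 6.35e-06). With PD it read 6.22 to 6.60 and was lower than HGF by 0.59 ± 0.13 (0.00175). With UO it read 6.57 to 7.14, a difference from HGF of -0.26 ± 0.14 that was not called (0.157), whereas its other probe set was called (-0.71). ADAMTS9, a proteoglycan-cleaving protease, fell by 1.07 ± 0.15 with HGF (2.16e-05) and was higher than HGF by 1.99 ± 0.15 with PD (3.38e-08) and 1.24 ± 0.16 with UO (1.29e-05). ADAM10, a sheddase, fell by 0.16 ± 0.04 (0.00579), but its other probe set was not called. Against HGF, 3 ADAM and ADAMTS genes were called higher and 3 lower with PD (29.9% and 25.8% of all genes). With UO 2 were called higher and 1 lower (26.2% and 26.3%). The 6 calls with PD became 3 when only these 2 groups were fitted.

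Proteases, receptors and inhibitors that act around MMPs were measured for 20 genes, of which 8 were called higher and 4 lower with HGF (list median 0.13). Of all genes, 28.0% were called higher and 27.7% lower. With PD 3 were called higher and 11 lower than HGF (29.9% and 25.8% of all genes). With UO 4 were called higher and 10 lower (26.2% and 26.3%). TFPI2, a serine protease inhibitor of the matrix, read 2.65 to 2.75 in Control and 10.32, 9.52, 9.59 and 10.05 with HGF, a rise of 7.18 ± 0.14 (limma adjusted p = 4.59e-14) that rests on probe sets below the filter in all other groups. SERPINE2, an inhibitor of urokinase and thrombin, rose by 5.74 ± 0.11 (2.36e-14). With PD it fell by 3.86 ± 0.11 from HGF, and with UO by 4.21 ± 0.11. On its brightest probe set, SERPINE2 remained above Control by 1.88 ± 0.11 with PD (1.36e-08) and by 1.53 ± 0.11 with UO (4.05e-07). Another kept probe set of SERPINE2 was above Control by 3.69 with PD and 2.57 with UO. A further kept one, raised by 4.54 with HGF, differed from Control by only 0.20 and 0.14 and was not called. MMP13 was not called against Control in either group, and TIMP1 was called lower.

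CTSS, the lysosomal protease cathepsin S, moved the other way. It read 13.82 to 13.95 in Control and 11.81 to 12.08 with HGF, a fall of 1.89 ± 0.07 (limma adjusted p = 2.36e-11), and was higher than HGF by 1.50 ± 0.07 with PD and 1.88 ± 0.08 with UO. PLAU, the urokinase that generates plasmin, an activator of proMMPs, differed by 0.17 ± 0.15 with HGF (limma adjusted p = 0.368) and its arrays overlapped. It was lower than Control by 0.93 ± 0.15 with PD (0.000218) and by 0.73 ± 0.16 with UO (0.004). PLAT, the tissue plasminogen activator, and CTSK, a collagen-cleaving cathepsin, were picked from this list after their values were seen, and rose by 2.52 ± 0.17 (9.12e-09) and 1.75 ± 0.12 (1.37e-08). RECK, a membrane-anchored MMP inhibitor, read 2.39 to 2.59 on all arrays and was not kept.

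Among matrix proteins that MMPs cleave, 23 were measured, and 4 were called higher and 4 lower with HGF (list median 0.03). The shares of all genes were 28.0% higher and 27.7% lower. PD gave 4 higher and 7 lower than HGF (29.9% and 25.8% of all genes), and UO gave 5 and 5 (26.2% and 26.3%). LAMA3 and LAMB3, chains of the laminin of epithelial basement membranes, rose by 4.35 ± 0.12 (limma adjusted p = 1.45e-12) and 1.75 ± 0.08 (2.12e-10). LAMA3 read 10.22 to 10.73 in Control and 14.71 to 14.93 with HGF, and fell by 4.69 ± 0.12 with PD and 4.55 ± 0.13 with UO. LAMB3 ended below Control, by 1.06 ± 0.08 with PD and 1.23 ± 0.09 with UO. VCAN, a large proteoglycan, fell by 2.91 ± 0.13 with HGF (1.73e-10) and was higher than HGF by 2.87 ± 0.13 with PD and 2.91 ± 0.14 with UO. Fibrillar collagens, picked after their values were seen, differed among themselves. COL5A2 rose by 1.14 ± 0.05 with HGF (2.27e-10) and fell from HGF by 1.00 ± 0.05 with PD and 0.80 ± 0.06 with UO. COL2A1, COL3A1 and COL5A1 differed by 0.03 ± 0.09, 0.08 ± 0.08 and 0.05 ± 0.11 with HGF and were not called.

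Transcription factors known from MMP and TIMP promoters were measured for 26 genes, with 11 called higher and 4 lower with HGF (list median 0.21). Of all genes, 28.0% were called higher and 27.7% lower. With PD 0 were called higher and 14 lower than HGF (median -0.34, beside -0.02 over all genes), and with UO also 0 and 14 (median -0.45). The shares of all genes were 29.9% higher and 25.8% lower with PD, and 26.2% and 26.3% with UO. FOS, an AP-1 subunit, read 13.15 to 13.30 in Control and 14.19 to 14.27 with HGF, a rise of 1.00 ± 0.07 (limma adjusted p = 1.45e-08). It fell by 2.19 ± 0.07 with PD and 2.99 ± 0.07 with UO, which left it below Control by 1.19 ± 0.07 (1.85e-08) and 2.00 ± 0.07 (8.45e-10). The AP-1 subunits FOSL2, JUN and JUNB were picked after their values were seen, and rose with HGF by 0.91 ± 0.09, 0.56 ± 0.16 and 1.05 ± 0.11. Of the related factors, ATF3 rose by 0.69 ± 0.15 (0.000945), ATF2 fell by 0.36 ± 0.10 (0.00676), and BATF3 was not called (-0.01 ± 0.07).

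FOSL1, an AP-1 subunit known as an ERK target, read 2.25 to 2.26 in Control and 3.37, 4.05, 6.15 and 6.61 with HGF. Its difference was 2.79 ± 0.52 (limma adjusted p = 0.000356), it spread widely among the HGF arrays, and it passed the filter through them alone. ELK3, an ETS-family factor, rose by 2.38 ± 0.05 (2.27e-13) on its brighter probe set and by 0.57 on its dimmer one. SNAI2, a zinc finger repressor of epithelial genes, rose by 5.82 ± 0.18 (2.82e-12). It fell by 3.90 ± 0.18 with PD and 4.99 ± 0.19 with UO, and stayed above Control by 1.92 ± 0.18 (1.53e-06) and 0.83 ± 0.19 (0.00574). With UO the SNAI2 arrays, at 9.29, 8.64 and 8.68, overlapped with Control, where replicate 1 read 8.64. The 5 RUNX2 probe sets read between 1.66 and 3.47, so this regulator of MMP13 was not kept, and ETS1 had no annotated probe set.

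**Figure D5:**
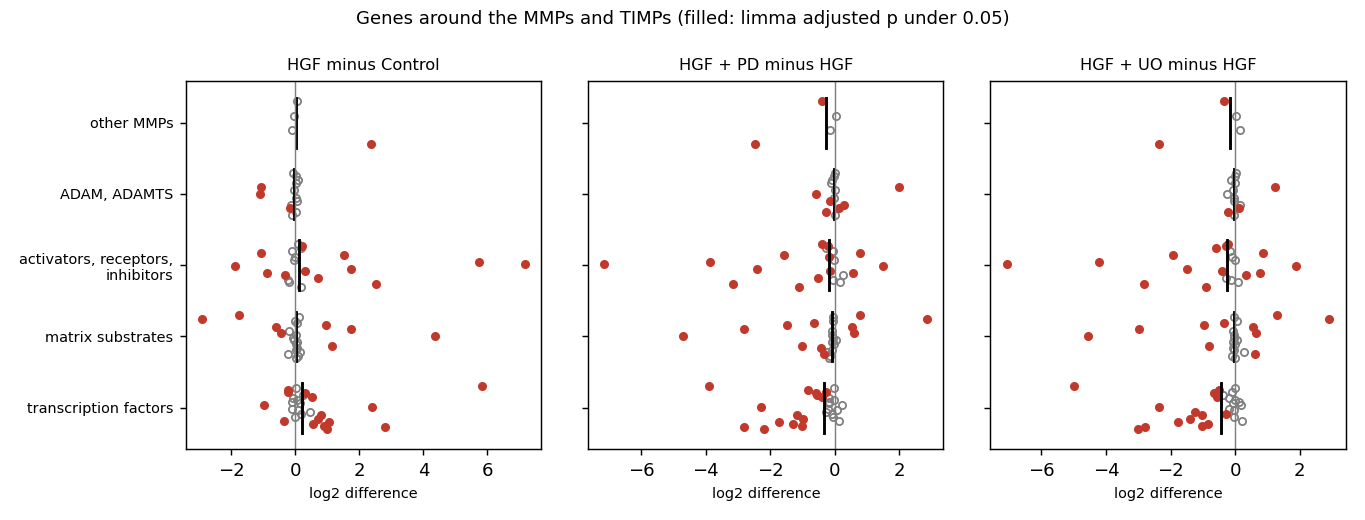
Log2 differences of the genes measured in 5 lists around the MMPs and TIMPs, in the 3 comparisons with HGF arrays, with filled points for a limma adjusted p under 0.05, open points otherwise and a bar for the list median. Transcription factors show 11 filled points above 0 with HGF and 14 below 0 with each inhibitor, while ADAM and ADAMTS genes show 3 filled points below 0 with HGF. Of all genes tested, 28.0% were called higher and 27.7% lower with HGF, and 25.8% and 26.3% lower than HGF with PD and with UO.

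Summed markers of other cell types that can make MMPs or TIMPs overlapped between Control and HGF arrays, except for the leukocyte list. Of 10 fibroblast markers 5 were kept, and the summed intensity of all 10 was 306 to 345 in Control, 317 to 336 with HGF, 293 to 306 with PD and 303 to 330 with UO. With HGF 0 fibroblast markers were called higher and 1, PDGFRB, lower, beside 28.0% and 27.7% of all genes. The 10 endothelial markers (5 kept) summed to 578 to 637 in Control and 594 to 657 with HGF, 550 to 604 with PD and 560 to 601 with UO, and 0 were called in any of the 5 comparisons. Of 10 leukocyte markers 9 were annotated and 3 kept, with sums over the 9 of 289 to 305 in Control, 367 to 597 with HGF, 284 to 335 with PD and 293 to 306 with UO. CD68, a lysosomal protein of macrophages, read 3.18 to 3.31 in Control and 6.99, 4.91, 5.11 and 8.12 with HGF, a rise of 3.03 ± 0.52 (limma adjusted p = 0.000157), and passed the filter through the HGF arrays alone. CD4, a T cell coreceptor, rose by 0.55 ± 0.11 with HGF (0.00043) and was lower than HGF by 0.46 ± 0.11 with PD (0.00183) and 0.48 ± 0.11 with UO (0.00273). CD3E, a T cell receptor subunit, fell by 0.15 ± 0.05 with HGF (0.0165). The other 6 annotated, PTPRC, CSF1R, ITGAM, LYZ, MS4A1 and CD79A, were not kept. The part of these markers in the member differences was not tested.

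Kidney epithelial markers also moved with HGF, with 3 of 15 called higher and 7 lower, beside 28.0% and 27.7% of all genes. CDH16, a kidney cadherin, fell by 3.00 ± 0.19 (limma adjusted p = 6.31e-09), and PAX8, a kidney transcription factor, fell by 1.57 ± 0.11 (1.43e-08). CDH1, the epithelial cadherin, rose by 0.60 ± 0.09 (2.82e-05). With PD 12 of the 15 and with UO 11 were called lower than Control, and 0 higher in both. The shares of all genes against Control were 13.5% lower and 21.8% higher with PD, and 10.3% and 13.8% with UO. The summed intensity of the 16 annotated markers was 131521 to 144251 in Control, 103345 to 123800 with HGF, 93686 to 117838 with PD and 102009 to 112094 with UO. This sum was thus below Control in all 3 treated groups, and its ranges overlapped between the HGF and the inhibitor arrays. The brightest markers, EPCAM, KRT8 and KRT18, weigh most in it. Against HGF, 5 of the 15 markers were called higher and 7 lower with PD, beside 29.9% and 25.8% of all genes. With UO 5 were called higher and 7 lower, beside 26.2% and 26.3%. CDH16 averaged 7.77 with HGF, 9.24 with PD and 9.74 with UO, and CDH1 10.40, 9.11 and 9.14. The HGF arrays of KRT18, CLDN1 and EMX2 overlapped with both inhibitor groups, and those of PAX2 with UO. The share of all genes that overlapped is not given here. The part of these markers in the member differences was not tested.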

How the data were processed

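Biotin-labelled total RNA from 15 MDCK samples was measured on Affymetrix canine arrays. The deposited values are linear intensities, 1 for each probe set, and the submitters' processing notes name GCRMA as the method the authors used. This method subtracts a sequence-dependent background and compresses dim probe sets towards a floor. Its version and the annotation build are not given in the sources used here.

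Log2 was taken without further scaling, and 111 control probe sets were left out. Probe sets with log2 of at least 4 on at least 3 arrays (24904) were fitted with limma 3.58.1 in R 4.3.3, with 1 mean per group and a variance trend, and p-values were Benjamini-Hochberg adjusted over all of them. A gene was represented by its kept probe set with the highest mean (10287 genes). Arrays are titled as biological replicates with no mention of separate cultures, so the p-values reflect array-to-array spread, and precision is limited by how many arrays there are. The procedure was tested on simulated data.

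The members and the 9 gene lists were chosen with earlier results of these data known. Named genes were the members, the 3 list genes with the lowest adjusted p for HGF minus Control and for HGF + PD minus HGF in each of the first 5 lists, the 3 profiles nearest to each member, and MMP14, RECK, PLAU, FOSL1, ETS1 and RUNX2. Others were picked after their values were seen. Alternatives covered the filter, scaling, pseudocount, variance trend, samples in the fit, the replicate number and each array left out. Sequences are not printed here.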

Additional observations from a re-analysis of the deposited data

Results flagged for a closer look

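Of 42 group checks on the member probe sets, 2 had a sample standing apart from the rest of its group, and chance alone marks about 1 group in 20. The brightest MMP2 probe set read 4.24 on HGF + PD replicate 1, while the other arrays of that group read 3.73 to 3.75. A dim MMP9 probe set that was not kept read 2.59 on HGF replicate 3, against 2.34 to 2.35 on the other HGF arrays. Neither of these 2 probe sets enters a difference between groups in the report. The 42 checks do not cover every group of all 14 probe sets, and no HGF + UO array was flagged. In that group the brightest MMP2 probe set read 4.32 on replicate 2, against 3.75 and 3.85. The dimmest TIMP3 probe set, which does enter the differences, read 3.44 on HGF + UO replicate 3, against 4.61 and 4.47.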

How the results depend on the processing

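The 5 members kept had the same direction in every alternative run for the comparisons with HGF arrays. With log2(intensity + 16), MMP13 differed by 6.71 for HGF minus Control, -6.81 for HGF + PD minus HGF and -6.67 for HGF + UO minus HGF, and TIMP1 by 7.17, -7.67 and -7.70, since the pseudocount shrinks dim values. On its dimmer probe set MMP13 gave 7.01, -7.05 and -7.02. Leaving out 1 array at a time, MMP13 ranged from 7.46 to 7.81 for HGF minus Control, and TIMP1 from 7.35 to 7.45. With a filter of log2 of at least 6, MMP1 was no longer tested and 0 of the other family genes were called with HGF. MMP9 for HGF + UO minus Control was called without Control replicate 1 (-0.43). The call of MMP28 for HGF + PD minus Control (-0.34, limma adjusted p = 0.0267) was lost without Control replicates 1 or 3 or HGF + PD replicates 1, 2 or 4. Counts of kidney epithelial markers called for HGF + UO minus Control fell from 11 to 7 without HGF + UO replicate 2. Matrix substrates called there numbered 5, and 2 without Control replicate 1 or HGF + UO replicate 1. ADAM and ADAMTS genes called for HGF + PD minus HGF numbered 6, and 3 with only the 2 groups in the fit. Of all list counts, 693 stayed within 1.5 times the main count, 24 fell and 3 rose further.

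Whether replicate numbers pair the arrays was not settled. A correlation of deviations over 0.1 was found in 8 of 21 same-numbered pairs (median 0.05) and in 15 of 63 pairs with other numbers (median 0.01). With the replicate block, 13924 probe sets were called for HGF minus Control, beside 13839 without it. The MMP13 difference for HGF + UO minus HGF was -7.49 with the block. Array values near the floor limit MMP2, MMP9, MMP1, FOSL1 and the lower levels of MMP13.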
